A study of Mus musculus with 14 samples.

Results

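The 36 genes described here encode the actin filament, its motor and tropomyosin subunits, and the proteins that bind it at stress fibres and focal adhesions. They were taken by symbol from the non-control probes of a mouse expression array, and the brightest probe stood for each gene. All 36 were measured, out of 34947 genes named on the array, and all 36 were among the 21372 genes tested, each well above background on all 14 arrays. By role, 11 were listed as smooth-muscle-type, 14 as cytoplasmic actin and filament genes and 9 as focal adhesion genes. The other 2, Srf and Filip1l, are regulators. The smooth-muscle-type name is a list label, and not every gene under it is a marker of smooth muscle.

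RNA came from mSCC-38, a cell line isolated from a mouse skin squamous cell carcinoma raised with DMBA and TPA and grown in medium with fetal calf serum. Cells received 1 of 2 siRNAs against the long non-coding transcript AK144841 (Si1AK, 4 arrays; Si2AK, 3 arrays) or a control siRNA (SiC, 3 arrays), all with the transfection reagent RNAimax and 72 h of culture, or no transfection (NT, 4 arrays, no time given). The labels do not say whether the arrays of a group came from separate dishes, so a p-value here reflects sample-to-sample spread alone, and that spread may be technical. All groups are 1 cell line, and no value here checks the knockdown, because the targeted transcript was not analysed here. A level below is the log2 signal of a probe minus the 75th percentile of its array, a difference is between group means of such levels, and a gene is called when its limma p-value, adjusted over all genes, is below 0.05.

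The arrays lay on 2 slides of 7, with 1 SiC array (replicate 1) on slide 1 and 1 Si2AK array (replicate 3) on slide 2. SiC replicate 1 and Si2AK replicate 2 stood apart, with a median processed signal of 270.9 and 107.5 beside 23.5 to 58.7 elsewhere, and with 90.5% and 84.9% of spots well above background beside 52.7% to 60.1%. Of the 29 members with a mean level above 0, SiC replicate 1 was the lowest SiC array in 26, and of the 7 with a mean level below 0 it was the highest SiC array in 5. Results that moved most without this array are given with and without it.

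As background, actin monomers polymerise into filaments, tropomyosins coat them, and non-muscle and smooth muscle myosins pull on them through their regulatory light chains. Focal adhesions join the filament ends to integrins through talin, vinculin and filamin. When monomeric actin is used up, myocardin-related cofactors enter the nucleus. There they join the serum response factor, Srf, at CArG boxes of many genes of this kind. Filament assembly was not measured here. In keratinocytes the cytoplasmic actins dominate, while smooth muscle actin (Acta2), calponin 1 (Cnn1) and transgelin (Tagln) are better known from smooth muscle and myofibroblasts.

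By the brightest probe, some members were called higher with each siRNA and none was called lower. The difference was negative for 4 members with Si1AK and for 2 with Si2AK. A dimmer probe of Pdlim7, given below, was called lower with Si1AK. With Si1AK against SiC, 7 of 36 members were higher and 29 were not called, beside 3.18% of all genes tested called higher (4.41% in either direction). With Si2AK against SiC, 12 were higher and 24 were not called, beside 8.5% of all genes called higher (13.2% in either direction). The median member difference was 0.19 with Si1AK and 0.34 with Si2AK, where the medians of all genes were -0.060 and -0.020. Without SiC replicate 1 the member medians were 0.12 and 0.31, beside -0.033 and 0.066 for all genes. Under quantile normalization and in the authors' deposited value table the Si2AK median was 0.22 and 0.21, beside 0.046 and 0.028 for all genes. The arrays of Si1AK all lay above those of SiC for 12 members (10.7% of all genes), and those of Si2AK for 21 members (16.6% of all genes), and for no member did either all lie below (8.85% and 9.33% of all genes).

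Of the 11 smooth-muscle-type genes, 3 were called higher with Si1AK (median difference 0.53), namely Acta2, Flnc and Tpm1. With Si2AK 3 were called (median 0.62), namely Acta2, Cnn1 and Csrp1. Tpm1, Tpm2 and Csrp1 of this list were bright in the control, with mean SiC levels of 5.01, 5.98 and 6.05. The counts and medians of this list are therefore not those of smooth muscle markers alone. Of the 14 cytoplasmic genes, 1 was called with Si1AK (median 0.16) and 5 with Si2AK (median 0.23). Of the 9 focal adhesion genes, 3 were called with Si1AK (median 0.24) and 4 with Si2AK (median 0.35). Both contrasts share the SiC arrays. Without SiC replicate 1 the cytoplasmic median was 0.033 with Si1AK and 0.16 with Si2AK, and without both arrays of raised signal the latter was 0.042. Without SiC replicate 2 the cytoplasmic medians were 0.25 and 0.35. Without SiC replicate 1 the focal adhesion medians were 0.15 and 0.32, with 1 and 4 genes called, and the smooth-muscle-type medians were 0.54 and 0.54, with 4 and 5 called. The smooth-muscle-type median with Si1AK was 1.02 under quantile normalization and 0.86 in the authors' deposited value table, beside 0.061 and 0.047 for all genes. In these settings the focal adhesion median with Si2AK was 0.23 and 0.22, beside 0.046 and 0.028 for all genes. Without both arrays of raised signal the member counts were 7 and 11, beside 664 and 1183 of all 21372 genes called higher. Without Si1AK replicate 1 or without Si1AK replicate 2, 4 members were called with Si1AK, beside 361 and 333 of all genes. A fit of just the pair of groups in a contrast called 2 and 1 members, beside 177 and 70 of all genes. Counts within a slide, where SiC or Si2AK had 1 array, are given in the closing section.

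**Figure D1:**
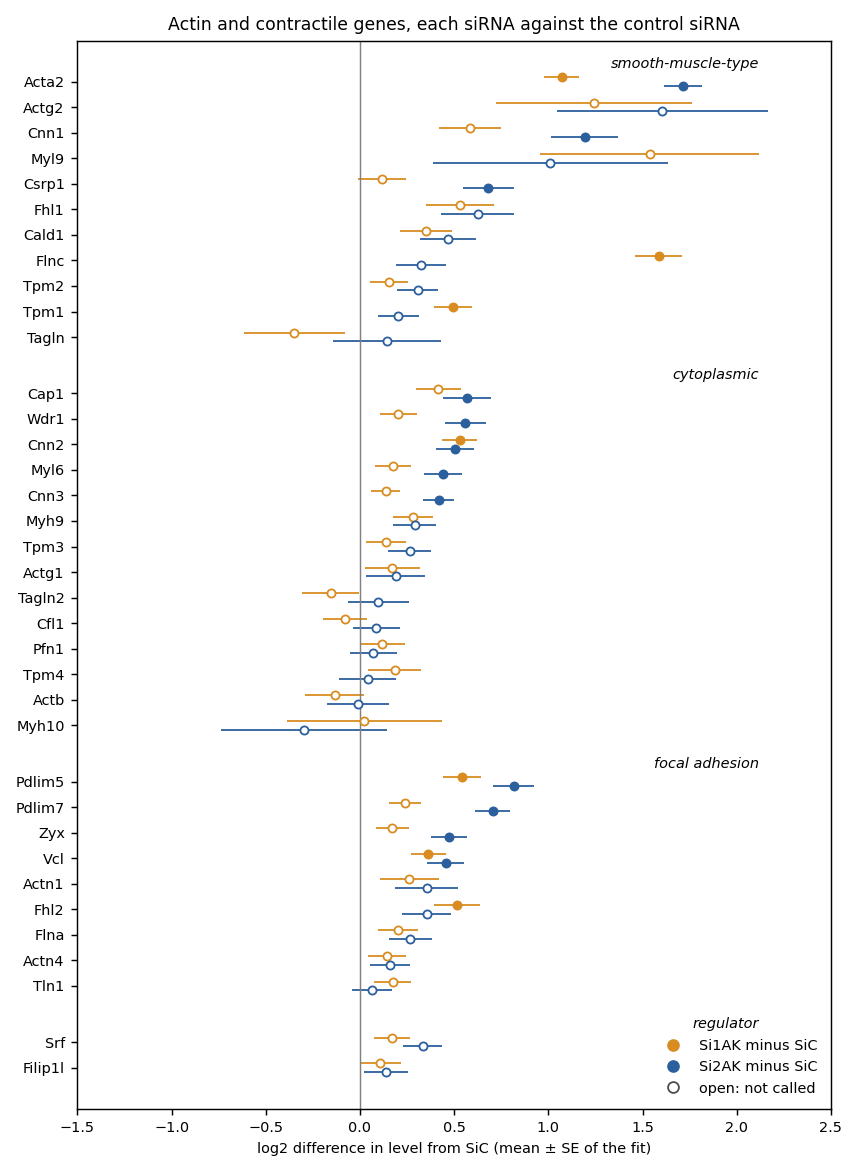
Log2 difference from SiC of each of the 36 members (x axis, point and SE of the limma fit), grouped by role, for Si1AK (orange) and Si2AK (blue). Filled points are called and open points are not. Acta2 lies at 1.07 and 1.71, Flnc is filled only for Si1AK, and Actb and Tagln lie below 0 for Si1AK.

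Among the smooth-muscle-type genes, Acta2, the actin of smooth muscle and myofibroblasts, rose with both siRNAs. Its levels were 3.91, 4.09 and 4.07 on the SiC arrays, and 4.02, 3.97, 4.04 and 4.22 on the NT arrays. They were 5.14, 5.21, 5.09 and 4.93 with Si1AK, and 5.83, 5.77 and 5.61 with Si2AK. No array of either siRNA overlapped the controls, and the Si2AK arrays all lay above the Si1AK arrays. The difference from SiC was 1.07 ± 0.094 (SE; limma adjusted p = 0.000154) with Si1AK, a 2.1-fold rise, and 1.71 ± 0.10 (limma adjusted p = 1.59e-05) with Si2AK, a 3.28-fold rise. Slide 1 alone gave 1.26 and 1.89, and slide 2 alone gave 0.94 and 1.54; the Si1AK difference missed the threshold within each (limma adjusted p = 0.0576 and 0.065). The Acta2 probe lies at chr19:34316060-34316119 (minus strand, mm9) and was printed 10 times per array. Its spots within an array varied by an SD of 0.029 to 0.058, or 0.135 on SiC replicate 1 and 0.10 on Si2AK replicate 2. This is the spread of repeat prints on an array and does not measure the spread between samples.

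Flnc, the filamin of muscle Z-discs and of stressed filaments, rose with Si1AK. Its levels were -0.95, -0.79 and -0.89 in SiC, 0.69, 0.90, 0.72 and 0.53 with Si1AK, and -0.55, -0.44 and -0.67 with Si2AK. All Si1AK arrays lay above every array of the other groups. The difference from SiC was 1.58 ± 0.12 (limma adjusted p = 8.67e-05) with Si1AK, a 3-fold rise, and 0.32 ± 0.13 (limma adjusted p = 0.149) with Si2AK. Within a slide the Si1AK value missed the threshold, at 1.74 for slide 1 and 1.47 for slide 2 (limma adjusted p = 0.0664 and 0.0589). In NT the levels were -0.76, -1.10, -1.0 and -0.62, which overlapped those of SiC and, on 1 array, those of Si2AK.

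Cnn1, which binds filaments and restrains myosin in smooth muscle, rose with Si2AK. Its levels were -1.53, -2.35 and -2.13 in SiC, -1.32, -1.31, -1.44 and -1.61 with Si1AK, and -0.75, -0.68 and -1.01 with Si2AK. The Si2AK arrays lay above all others, while Si1AK overlapped SiC only through SiC replicate 1. The Si2AK difference was 1.19 ± 0.18 (limma adjusted p = 0.00138) and the Si1AK difference was 0.58 ± 0.17 (limma adjusted p = 0.0732). Without SiC replicate 1 they were 1.43 and 0.82, and both were called (limma adjusted p = 0.000133 and 0.00411). On slide 1 they were 0.82 and 0.21, and on slide 2 1.23 and 0.72, with no call. Csrp1, a LIM protein of actin bundles, was at 5.76, 6.17 and 6.21 in SiC, 6.02, 6.37, 6.05 and 6.23 with Si1AK, and 6.71, 6.76 and 6.72 with Si2AK. Only the Si2AK arrays stood clear of SiC, with a difference of 0.68 ± 0.13 (limma adjusted p = 0.00662), which was 0.98 on slide 1 and 0.53 on slide 2. The Si1AK difference of Csrp1 was 0.12 ± 0.13.

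**Figure D2:**
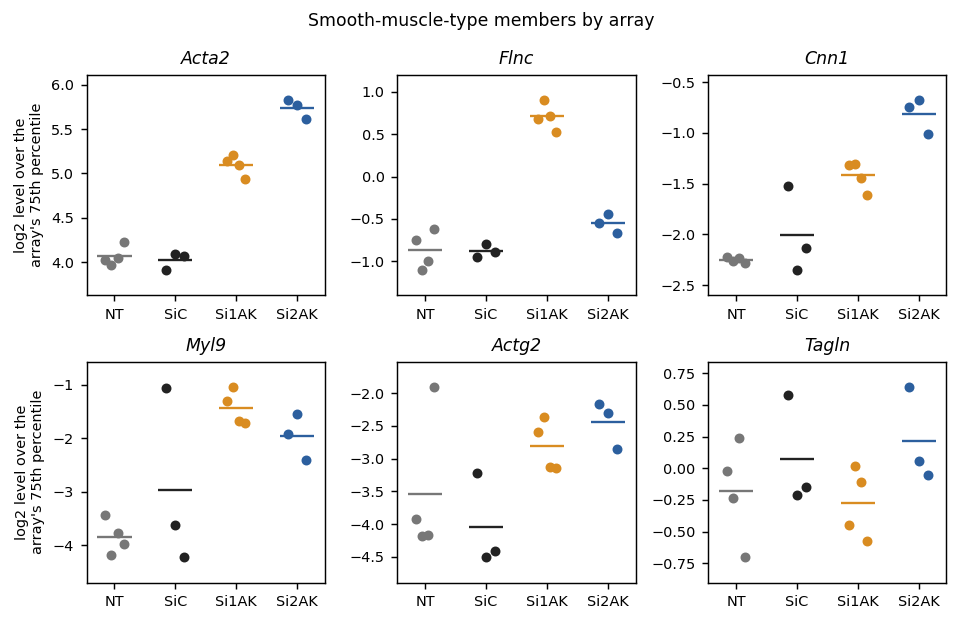
Level of 6 smooth-muscle-type members on each array (points, log2 over the 75th percentile of the array) with group means (bars) in NT, SiC, Si1AK and Si2AK; each panel has its own axis. Acta2 and Cnn1 are highest in Si2AK and Flnc in Si1AK, and 1 SiC array of Myl9 and 1 NT array of Actg2 stand apart from their groups.

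Myl9, the regulatory light chain of smooth muscle myosin, was called against NT but not against SiC. Its levels were -1.07, -3.63 and -4.23 in SiC, so that SiC replicate 1 lay among the siRNA arrays, and -3.44, -4.19, -3.78 and -3.99 in NT. They were -1.30, -1.05, -1.69 and -1.72 with Si1AK and -1.93, -1.55 and -2.42 with Si2AK. Against SiC the differences were 1.54 ± 0.58 and 1.01 ± 0.62 (limma adjusted p = 0.177 and 0.366). Without SiC replicate 1 they were 2.49 and 1.97 and were called (limma adjusted p = 0.00171 and 0.00263). On slide 1, whose only SiC array is that replicate, the values were -0.11 and -0.67, and on slide 2 2.23 and 1.51. Against NT the differences were 2.41 ± 0.54 and 1.89 ± 0.58 (limma adjusted p = 0.0198 and 0.0482). These calls were lost in 6 and 18 of 27 other settings, over which the values ran from 1.42 to 2.64 and from 0.98 to 2.11. Any single NT array left out ended the Si2AK call.

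Actg2, the enteric smooth muscle actin, was variable in both controls. Its levels were -3.22, -4.51 and -4.41 in SiC and -3.93, -4.18, -4.16 and -1.91 in NT. With Si1AK they were -2.59, -2.36, -3.13 and -3.14, and with Si2AK -2.16, -2.31 and -2.85. All siRNA arrays lay above all SiC arrays, but NT replicate 4 lay above every one of them. The differences from SiC, 1.24 ± 0.52 and 1.61 ± 0.56, were not called (limma adjusted p = 0.226 and 0.0851). Without NT replicate 4, whose spread enters the joint fit, the Si2AK difference of 1.61 was called (limma adjusted p = 0.012), as was that of 2.02 without SiC replicate 1 (limma adjusted p = 0.0469).

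Fhl1, a LIM protein of muscle, was higher than in NT with both siRNAs (0.87 ± 0.17 and 0.97 ± 0.18; limma adjusted p = 0.009 and 0.00384), while its differences from SiC, 0.53 and 0.62, were not called. Tagln, which binds filaments in smooth muscle, did not differ between any groups by the test, with -0.35 ± 0.27 for Si1AK and 0.14 ± 0.29 for Si2AK against SiC. Its difference from SiC was the lowest of the smooth-muscle-type genes with either siRNA. Tpm2, a tropomyosin, and Cald1, which links filaments to myosin, had differences of 0.15 and 0.35 with Si1AK and of 0.31 and 0.46 with Si2AK, none of them called.

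Tpm1, the tropomyosin whose transcripts are spliced into muscle and non-muscle forms, had 5 probes, and they gave different values. The sequences are shown because the probes that moved most with Si2AK lie at other positions than the brightest one; the probes were not set against exons here, so the transcripts they measure are not known. The brightest probe, at chr9:66871166-66871225 (minus strand, mm9), can be read without interruption up to a stop codon, given in capitals. A pair of probes that share 46 of 60 bases lies at chr9:66875782-66875855, and 1 of them holds AATAAA, the letters of a polyadenylation signal, given in capitals in its last 30 bases.
A_55_P2032192: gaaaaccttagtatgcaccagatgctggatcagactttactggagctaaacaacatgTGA
A_55_P2187043: tcgcccagtgtaaAATAAAcactgtacgct

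The brightest Tpm1 probe was at 4.82, 5.08 and 5.13 in SiC, 5.57, 5.59, 5.53 and 5.32 with Si1AK, and 5.38, 5.10 and 5.16 with Si2AK. The Si1AK arrays lay above SiC and the Si2AK arrays overlapped it. The differences were 0.50 ± 0.10 (limma adjusted p = 0.0182) and 0.20 ± 0.11 (limma adjusted p = 0.273), and the Si1AK call was lost without SiC replicate 1 (0.40), without Si1AK replicate 1 or without Si1AK replicate 2 (0.47 each). Of the overlapping pair, A_55_P2187043 was at 0.54, 0.41 and 0.48 in SiC, 1.40, 1.55, 1.16 and 1.16 with Si1AK, and 1.99, 1.93 and 1.71 with Si2AK. Here the 3 sets of arrays did not overlap, in the order SiC, Si1AK, Si2AK. The difference of this probe was 0.84 ± 0.11 (limma adjusted p = 0.0019) with Si1AK and 1.40 ± 0.12 (limma adjusted p = 6.7e-05) with Si2AK. Its overlapping partner A_55_P2187038 gave 0.71 and 1.27, and the remaining probes gave 0.30 and 0.10, and 0.050 and 0.021.

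Within each array, the level of A_55_P2187043 minus that of the brightest Tpm1 probe averaged -4.53 in SiC (SD 0.22, n = 3) and -4.62 in NT (SD 0.057, n = 4). It averaged -4.19 with Si1AK (SD 0.14, n = 4) and -3.34 with Si2AK (SD 0.15, n = 3). It ran from -4.66 to -4.28 in SiC, from -4.38 to -4.03 with Si1AK and from -3.45 to -3.17 with Si2AK, so that only the Si2AK arrays stood clear of SiC. These probes were paired after their values were seen, so the values are a description with no test.

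**Figure D3:**
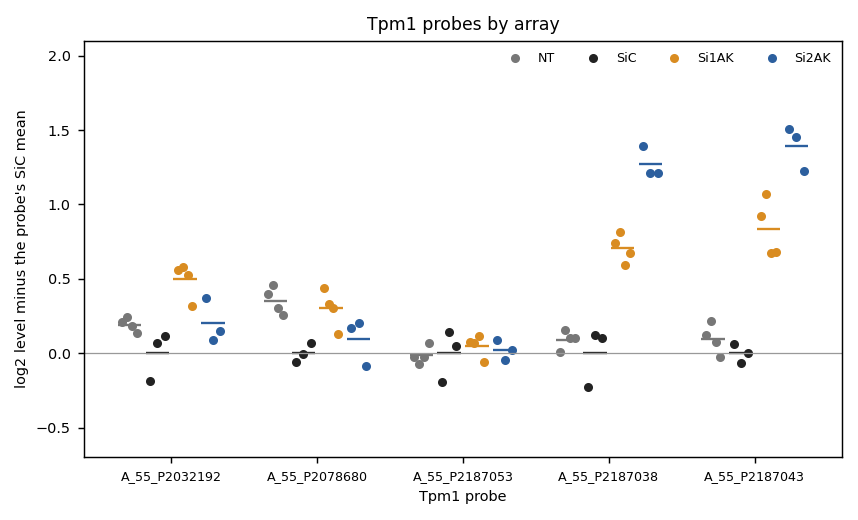
Level of the 5 Tpm1 probes on each array, minus the mean of the SiC arrays for that probe (y axis, log2), in NT, SiC, Si1AK and Si2AK; points are arrays and bars group means. The overlapping pair on the right reaches 1.27 and 1.40 with Si2AK, while the brightest probe on the left reaches 0.50 with Si1AK and 0.20 with Si2AK.

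The cytoplasmic actins, which form the filament network of nearly every cell, were not called with either siRNA. Actb, beta-actin, was at 8.59, 9.09 and 8.70 in SiC, 8.51, 8.57, 8.62 and 8.92 with Si1AK, and 8.52, 8.93 and 8.89 with Si2AK. Actg1, gamma-actin, was at 7.62, 8.23 and 8.01 in SiC, 8.17, 8.07, 8.05 and 8.20 with Si1AK, and 8.01, 8.24 and 8.18 with Si2AK. In both genes the groups overlapped. The differences from SiC were -0.13 ± 0.16 and -0.011 ± 0.17 for Actb, and 0.17 ± 0.15 and 0.19 ± 0.16 for Actg1 (limma adjusted p of 0.519 or more in all 4). The 5 probes of Actg1 ranged from -0.27 to 0.19 with Si1AK.

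Among the other cytoplasmic genes, Cnn2, the calponin of non-muscle cells, was called with both siRNAs. It was at 4.44, 4.66 and 4.70 in SiC, 5.18, 5.16, 5.17 and 5.01 with Si1AK, and 5.26, 5.08 and 4.97 with Si2AK. All siRNA arrays lay above all SiC and NT arrays. The differences were 0.53 ± 0.094 and 0.50 ± 0.10 (limma adjusted p = 0.00914 and 0.00723), and its other probe gave 0.57 and 0.50. On slide 1 both were 0.73, and on slide 2 they were 0.41 and 0.29, with no call within a slide. Cnn3, the acidic calponin, found outside muscle, was at 5.10, 5.37 and 5.32 in SiC, 5.35, 5.40, 5.38 and 5.47 with Si1AK, and 5.71, 5.63 and 5.70 with Si2AK. Only Si2AK stood clear, at 0.42 ± 0.082 (limma adjusted p = 0.00637), and the Si1AK difference was 0.14. The Si2AK call of Cnn3 was lost in 4 of 27 other settings, over which the value ran from 0.24 to 0.57.

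Wdr1, Cap1 and Myl6 were called with Si2AK. Wdr1, which speeds the disassembly of cofilin-bound filaments, was at 5.58, 6.02 and 5.82 in SiC, 6.0, 5.98, 6.0 and 6.07 with Si1AK, and 6.33, 6.32 and 6.45 with Si2AK, a difference of 0.56 ± 0.11 for Si2AK (limma adjusted p = 0.0056). Cap1, which recycles actin monomers, was at 5.33, 5.81 and 5.78 in SiC, 6.04, 6.11, 6.05 and 6.02 with Si1AK, and 6.26, 6.20 and 6.17 with Si2AK. Its Si2AK difference was 0.57 ± 0.13 (limma adjusted p = 0.0132) and its Si1AK difference 0.41 ± 0.12 (limma adjusted p = 0.0795). All Si1AK and Si2AK arrays of Cap1 lay above SiC, but NT replicate 4, at 6.21, reached the Si2AK range.

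Myl6, the essential light chain of non-muscle myosin, was at 7.31, 7.68 and 7.64 in SiC, 7.68, 7.76, 7.69 and 7.76 with Si1AK, and 7.90, 8.01 and 8.05 with Si2AK. The Si2AK arrays stood above the rest, by 0.44 ± 0.10 from SiC (limma adjusted p = 0.0154). SiC replicate 1 was the lowest array of Wdr1, Cap1 and Myl6, and without it their Si2AK differences were 0.44, 0.41 and 0.32, all called. The Myl6 call was lost without both arrays of raised signal (0.31, limma adjusted p = 0.0668) and without Si2AK replicate 3 (0.41, limma adjusted p = 0.0528), and without Si2AK replicate 1 the Cap1 call (0.54, limma adjusted p = 0.0502).

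The remaining cytoplasmic genes were not called with either siRNA in the main fit. With slide as a block, Myh9 was called with Si2AK (0.34, limma adjusted p = 0.0464). In the main fit, the differences of these genes from SiC ran from -0.16 (Tagln2, a transgelin of non-muscle cells) to 0.28 (Myh9, the heavy chain of non-muscle myosin IIA) with Si1AK. With Si2AK they ran from -0.30 (Myh10, the heavy chain of non-muscle myosin IIB) to 0.29 (Myh9). Myh10 was at -1.38, -2.73 and -3.31 in SiC, the first on SiC replicate 1. Without that array its differences were 0.57 with Si1AK and 0.25 with Si2AK, neither called. Cfl1, cofilin 1, which severs filaments, was at -0.080 and 0.087, and Pfn1, profilin 1, which feeds monomers to growing ends, at 0.12 and 0.072. The tropomyosins Tpm3 and Tpm4 were at 0.14 and 0.18 with Si1AK and at 0.26 and 0.041 with Si2AK.

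**Figure D4:**
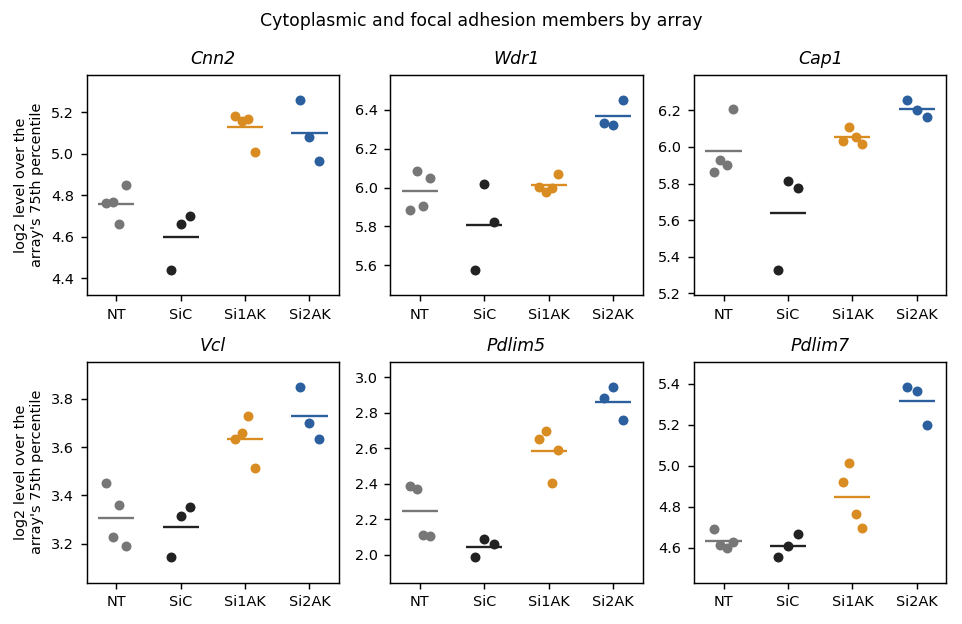
Level of 3 cytoplasmic members (Cnn2, Wdr1, Cap1) and 3 focal adhesion members (Vcl, Pdlim5, Pdlim7) on each array (points, log2 over the 75th percentile of the array) with group means (bars); each panel has its own axis. Wdr1, Pdlim5 and Pdlim7 are highest in Si2AK, and SiC replicate 1 is the lowest array in every panel.

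All 9 focal adhesion genes had positive differences from SiC with both siRNAs, but without SiC replicate 1 the Si2AK difference of Tln1 was -0.0078, and under quantile normalization those of Tln1 and Actn4 were -0.11 and -0.014. Pdlim5, a PDZ-LIM adaptor of filaments, was at 1.99, 2.09 and 2.06 in SiC, 2.66, 2.70, 2.41 and 2.59 with Si1AK, and 2.88, 2.94 and 2.76 with Si2AK. The 3 sets did not overlap, with Si2AK highest. Its differences were 0.54 ± 0.10 and 0.82 ± 0.11 (limma adjusted p = 0.0115 and 0.000714), 0.69 and 0.93 on slide 1, and 0.42 and 0.68 on slide 2. Of its other probes, which are assigned to another RefSeq transcript, 1 gave 0.33 and 0.67 and the other -0.27 and 0.16, and the mean of its probes was not called with Si1AK (0.20).

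Pdlim7, another PDZ-LIM adaptor, was at 4.55, 4.61 and 4.67 in SiC, 4.92, 5.01, 4.76 and 4.70 with Si1AK, and 5.38, 5.36 and 5.20 with Si2AK. Both siRNA groups lay above SiC, with a clear gap only for Si2AK, at 0.70 ± 0.093 (limma adjusted p = 0.000714), while the Si1AK difference of 0.24 ± 0.087 was not called (limma adjusted p = 0.159). Its probes disagreed for Si1AK: the probe A_55_P2161858 was at -1.03 ± 0.13 (limma adjusted p = 0.00118), and at 0.025 with Si2AK. The remaining probe of Pdlim7 gave 0.12 and 0.68. P-values of single probes were adjusted over the 30324 probes that passed the filter on dim signals.

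Vcl, vinculin, which reinforces adhesions under tension, was at 3.14, 3.32 and 3.35 in SiC, 3.63, 3.66, 3.73 and 3.51 with Si1AK, and 3.85, 3.70 and 3.63 with Si2AK. All siRNA arrays lay above all SiC and NT arrays. The differences were 0.36 ± 0.093 (limma adjusted p = 0.0499) and 0.46 ± 0.099 (limma adjusted p = 0.0109). The Si1AK call sat at the threshold and was lost in 25 of 27 other settings, over which the value ran from 0.28 to 0.50. The Si2AK call was lost without both arrays of raised signal (0.41, limma adjusted p = 0.0554).

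Fhl2, a LIM protein that shuttles between adhesions and the nucleus, was at 4.53, 4.71 and 4.52 in SiC, 5.12, 5.18, 4.93 and 5.17 with Si1AK, and 4.99, 4.96 and 4.87 with Si2AK. The siRNA arrays lay above SiC, but NT, at 5.02, 5.12, 4.65 and 4.68, overlapped both. The differences were 0.51 ± 0.12 (limma adjusted p = 0.0371) and 0.35 ± 0.13 (limma adjusted p = 0.106), and the Si1AK call was lost in 14 of 27 other settings, over which the value ran from 0.44 to 0.62. Each of 9 single arrays, left out in turn, ended it, with values from 0.48 to 0.58. Zyx, zyxin, which recruits filament-elongating proteins, was at 6.50, 6.46 and 6.65 in SiC, 6.73, 6.76, 6.73 and 6.61 with Si1AK, and 6.99, 7.01 and 7.02 with Si2AK. Its Si2AK arrays lay tightly together above the rest, at 0.47 ± 0.095 from SiC (limma adjusted p = 0.00733), a call that was lost under quantile normalization (0.34) and in the authors' deposited value table (0.37).

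The remaining adhesion members were not called in the main fit. With slide as a block, Flna (0.33, limma adjusted p = 0.0185) and Actn1 (0.44, limma adjusted p = 0.042) were called with Si2AK. Flna, filamin A, was at 0.20 and 0.27 with Si1AK and Si2AK, Actn1 and Actn4, the alpha-actinins that bundle filaments, at 0.26 and 0.14 with Si1AK and at 0.35 and 0.16 with Si2AK, and Tln1, talin 1, at 0.17 and 0.062. The smallest difference of the group was that of Actn4 with Si1AK and that of Tln1 with Si2AK.

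The siRNAs differed from each other in 8 members, tested directly. With Si2AK minus Si1AK, 7 of 36 members were higher and 1 was lower, beside 6.31% and 6.14% of all genes (12.4% in either direction), and the median member difference was 0.12, where that of all genes was 0.097. Acta2 was higher with Si2AK by 0.64 ± 0.094 (limma adjusted p = 0.000952), Cnn1 by 0.61 ± 0.17 (limma adjusted p = 0.032), Csrp1 by 0.56 ± 0.13 (limma adjusted p = 0.0121) and Pdlim7 by 0.46 ± 0.087 (limma adjusted p = 0.00445). Flnc was lower with Si2AK, with a difference of -1.26 ± 0.12 (limma adjusted p = 8.58e-05). Wdr1 (0.36), Zyx (0.30) and Cnn3 (0.28) passed closer to the threshold, and their calls were lost in 14, 21 and 15 of 27 other settings, and that of Cnn1 in 12. Over those settings Wdr1 ran from 0.20 to 0.42, Zyx from 0.19 to 0.35 and Cnn3 from 0.068 (mean of its probes) to 0.31, while Cnn1 ran from 0.49 to 0.71. In all 8 genes the arrays of the siRNAs did not overlap; over all members this held for 11 higher (17.4% of all genes) and 1 lower (12%). The count of 7 fell to 3 or 4 when any single Si1AK or Si2AK array was left out. Without SiC replicate 1, the brightest Tpm1 probe, at -0.29, was called lower as well (limma adjusted p = 0.0389). Within slide 1 and within slide 2, the Acta2 difference was 0.62 and 0.60 and that of Flnc -1.29 and -1.29.

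Among the regulators, Srf, the transcription factor of the CArG box, was at 2.90, 3.15 and 3.13 in SiC, 3.24, 3.23, 3.22 and 3.24 with Si1AK, and 3.38, 3.44 and 3.36 with Si2AK. These sets did not overlap, in the order SiC, Si1AK, Si2AK, but NT, at 3.41, 3.52, 3.12 and 3.36, spanned the range of all of them except the lowest SiC array. The differences from SiC were 0.17 ± 0.096 and 0.33 ± 0.10 and were not called (limma adjusted p = 0.355 and 0.0544). With Si2AK the difference was called without NT replicate 2 (limma adjusted p = 0.0442) or NT replicate 3 (limma adjusted p = 0.0275), at 0.33 in both. Filip1l, a filamin-interacting protein, was at 0.11 and 0.14.

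The promoters of the members were searched in a RefSeq table that holds windows from 250 bases before to 50 bases after each start (GRCm38.p6, a build other than that of the probes). It matched 33 of 36 members with 42 starts; Actb, Actg2 and Tagln were not matched. A CArG box in its strict form, which reads alike on both strands, lay in the window of 9 of 33 members (27.3%), beside 488 of 27025 genes (1.81%). The members with one were Actg1, Cnn2, Fhl1, Fhl2, Filip1l, Myl6, Myl9, Srf and Vcl. Of the 15 members called higher than SiC with at least 1 siRNA, 4 held a CArG box, and of the 18 other members in the table, 5 did. The core of the TEAD motif, GGAATG on either strand, lay in the windows of 10 of 33 members (30.3%), beside 16.6% of genes. They were 4 of the 15 called members (Acta2, Flnc, Tpm1 and Vcl) and 6 of the 18 others (Actn4, Cald1, Flna, Myh10, Pfn1 and Tagln2). A match is a run of letters and says nothing of binding. Boxes with a changed base, or outside the window, were not searched. A member without a match, such as Acta2 or Cnn1, may therefore still hold one.

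The stretches of 250 bases before the start are printed for Cnn2, Vcl and Myl6, which were called against SiC, and for Srf, whose product is known to bind this box, with the CArG boxes in capitals. They lie at chr10:79988350-79988599 (plus strand), chr14:20929148-20929397 (plus strand), chr10:128493010-128493259 (minus strand) and chr17:46556163-46556412 (minus strand). The box begins 56 bases before the start in Cnn2, 227 in Vcl and 50 in Myl6, and Srf has a pair, at 82 and 62.
Cnn2: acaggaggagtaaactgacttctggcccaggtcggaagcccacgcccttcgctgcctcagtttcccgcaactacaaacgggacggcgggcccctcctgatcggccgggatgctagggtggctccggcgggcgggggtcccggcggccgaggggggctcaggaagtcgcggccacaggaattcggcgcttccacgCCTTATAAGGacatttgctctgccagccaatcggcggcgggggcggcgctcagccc
Vcl: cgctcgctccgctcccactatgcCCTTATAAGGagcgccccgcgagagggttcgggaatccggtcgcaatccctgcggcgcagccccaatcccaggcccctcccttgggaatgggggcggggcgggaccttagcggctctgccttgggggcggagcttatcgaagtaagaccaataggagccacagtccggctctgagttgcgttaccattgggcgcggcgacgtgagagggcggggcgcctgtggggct
Myl6: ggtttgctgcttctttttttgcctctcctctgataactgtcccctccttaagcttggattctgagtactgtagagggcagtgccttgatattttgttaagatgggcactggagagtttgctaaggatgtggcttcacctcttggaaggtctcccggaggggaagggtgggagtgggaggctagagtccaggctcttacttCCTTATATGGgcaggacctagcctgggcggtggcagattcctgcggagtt
Srf: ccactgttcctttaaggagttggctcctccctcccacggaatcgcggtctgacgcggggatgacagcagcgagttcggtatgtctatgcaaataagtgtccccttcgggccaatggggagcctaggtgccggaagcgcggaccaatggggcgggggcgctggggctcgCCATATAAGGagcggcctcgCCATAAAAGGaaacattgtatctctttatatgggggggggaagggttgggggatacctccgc

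Other genes around the members were taken from lists of SRF cofactors, Arp2/3 and nucleation, filament turnover, crosslinkers and the adhesion complex, and all differences are from SiC. Their counts stand beside 3.18% of all genes called higher and 1.23% lower with Si1AK, and 8.5% higher and 4.66% lower with Si2AK. In filament turnover and nucleation, 1 of 15 turnover genes rose with Si1AK and 4 rose and 1 fell with Si2AK. Capzb, of the capping protein, rose by 0.50 and 0.51, and Dstn, destrin, which severs filaments, and Gsn, gelsolin, rose with Si2AK by 0.74 and 0.57. Twf2, a twinfilin, had a Si2AK difference of -0.27. Of 15 Arp2/3 and nucleation genes, 1 rose with Si1AK (Arpc5, 0.34) and 4 with Si2AK, Arpc1a the most (0.56). The Arp2/3 complex starts branched filaments.

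Of 11 crosslinkers, 3 rose with Si1AK and 5 with Si2AK. Lcp1, L-plastin, a bundling protein best known from leukocytes and carcinoma cells, rose by 0.89 ± 0.15 and 0.91 ± 0.16 (limma adjusted p = 0.00776 and 0.00425). Palld, palladin, rose with Si1AK by 0.45. Of 21 adhesion complex genes, 2 rose and 1 fell with Si1AK, and 8 rose and 2 fell with Si2AK. Fblim1, a filamin-binding LIM protein, rose by 0.63 and 0.49, Parva, alpha-parvin, by 0.44 and 0.38, and Enah, which elongates filaments, by 0.80 with Si2AK (Si1AK 0.14, not called). Tln2, a talin paralogue, had differences of -0.61 and -0.71, and Parvb, beta-parvin, one of -0.60 with Si2AK.

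Of 6 SRF cofactors tested, Mrtfa, the cofactor released from actin monomers, rose with Si2AK by 0.46 ± 0.10 (limma adjusted p = 0.0127). Myocd, the cofactor that marks smooth muscle, was well above background on 3 of 14 arrays and was not tested. Scai, a repressor of these cofactors, had differences of -2.45 and -2.07 and was called, but SiC itself stood 2.04 above NT.

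The control siRNA set against untransfected cells gave 0 calls over all genes with limma (0% of those tested), with 1586 genes at an unadjusted p below 0.05, 6 of them members. The members' differences between SiC and NT had a median of -0.15, where that of all genes was -0.008, and 29 of 36 were negative; without SiC replicate 1 the median was -0.064, beside -0.041 for all genes, and 25 were negative. All SiC arrays lay above all NT arrays for 1 member (1.64% of all genes) and below them for 3 (4.32%). Set against NT instead of SiC, 8 members were called higher with Si1AK (4.03% of all genes higher, 3.03% lower, 7.06% in either direction) and 13 with Si2AK (7.96%, 7.67% and 15.6%), and none lower. All arrays lay above NT for 11 members with Si1AK (9.15% of all genes) and for 14 with Si2AK (14.1%). The median member difference was then 0.074 and 0.25. Of the smooth-muscle-type genes, 5 were called with each siRNA, with medians of 0.74 and 0.47. Of the cytoplasmic genes, 1 and 4 were called, with medians of 0.011 and -0.008, so that the positive median against SiC in this group was not seen against NT. Of the focal adhesion genes, 2 and 4 were called, with medians of 0.20 and 0.20.

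Against NT, Acta2 differed by 1.03 ± 0.087 and 1.67 ± 0.094 (limma adjusted p = 7.27e-05 and 4.74e-06), Cnn1 by 0.83 and 1.44, and Flnc by 1.58 with Si1AK. Tpm1 (brightest probe, 0.30) and Fhl2 (0.23) were not called against NT with Si1AK, nor was Cap1 with Si2AK (0.23). Without Si1AK replicate 1, Si1AK replicate 2 or NT replicate 2 the Si1AK count against NT was 4, and without NT replicate 3 it was 5. Without NT replicate 1, NT replicate 3 or Si2AK replicate 1 the Si2AK count was 7, and without Si2AK replicate 2 or 3 it was 8.

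The labelled cell type was checked against marker lists. Of 12 keratinocyte markers, 10 were well above background on all 14 arrays, Krt5 and Krt14 among them, while Cdh1, E-cadherin, was so on 2 arrays. Of 11 smooth muscle markers, 5 were well above background on all arrays, Cnn1 and Actg2, which are members, included. Lmod1 and Kcnmb1 were so on none, Synpo2 on 1 and Myh11, smooth muscle myosin heavy chain, on 2. In the fibroblast list 4 of 11 were well above background on all arrays and 0 on none. In the leukocyte list these counts were 4 of 8 and 1, and in the endothelial list 4 of 6 and 0. In the striated muscle list they were 2 of 8 and 3 (Actc1, Myog and Myod1).

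The summed level of the keratinocyte list was 9.47 to 9.67 in NT, 9.14 to 9.49 in SiC, 9.20 to 9.38 with Si1AK and 9.64 to 9.70 with Si2AK. Of its 11 tested genes, 7 rose with Si2AK against SiC and 0 with Si1AK, beside 8.5% and 3.18% of all genes. Against NT, 3 were called higher with Si2AK (7.96% of all genes) and 2 lower with Si1AK (3.03%). The summed level of the smooth muscle list was 4.99 to 5.36 in NT, 4.87 to 5.19 in SiC, 5.06 to 5.19 with Si1AK and 5.34 to 5.45 with Si2AK. Of its 5 genes tested against SiC, 2 were called higher with Si2AK (median difference 0.38) and 0 with Si1AK (median 0.30). Against NT, 1 was called higher with each siRNA. In both lists the NT range reached into that of Si2AK. The fibroblast sum was 7.84 to 8.16 in NT, 7.57 to 7.96 in SiC, 7.76 to 7.97 with Si1AK and 7.88 to 8.00 with Si2AK. Of 7 fibroblast markers tested against SiC, 1 was called higher with Si2AK (median difference 0.53), beside 8.5% of all genes. With Si1AK 0 were called (median 0.013). The striated muscle sum was, in the same order, 2.72 to 2.96, 2.97 to 3.23, 3.65 to 3.83 and 2.60 to 2.70. Of the striated muscle markers, Tnnt2 rose by 0.69 with Si1AK and had a difference of -0.85 with Si2AK. The leukocyte sum was 3.62 to 3.94, 3.47 to 4.04, 3.80 to 3.98 and 3.45 to 3.57, and the endothelial sum 3.21 to 3.74, 3.12 to 3.27, 3.01 to 3.25 and 3.17 to 3.59. The part of these shifts in the members' results was not tested, and in such bulk RNA more cells of a type cannot be told apart from more RNA per cell.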

How the data were processed

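RNA of 14 samples (0.2 µg each, RIN 9) was labelled with Cy3 and hybridised to 1-colour Agilent mouse arrays, per the labels' protocols. The deposited files hold spot intensity from Feature Extraction, version 10.7.3.1, with probe positions on mm9, per the file headers, and marks for spots well above background, saturated or outlying. A table of log2 values, also deposited by the authors, was made with a background correction and normalization that are not given in the sources used here; its columns all had a median of 6.51 and correlated with the log2 mean signals at 0.991 or more. The submitters' processing notes name limma.

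Here, log2 processed signals minus the 75th percentile of all non-control spots of each array were averaged over the spots of a probe. Probes well above background on all arrays of at least 1 group were kept (30324), and the brightest stood for its gene. All 14 arrays entered 1 limma fit (3.58.1, R 4.3.3; 10 residual degrees of freedom) with 6 contrasts and Benjamini-Hochberg adjustment over 21372 genes at 0.05. The number of arrays limits the precision. Alternatives were normexp (offset 50), quantile normalization, the authors' table, other filters, the mean of probes, slide as a block or alone, the replicate block, the groups compared alone, and arrays left out; the percentile over probes was chosen after seeing the data. The fit was also run on simulated data with independent noise on each array. It leaves out the deviations that the real arrays share, so it is not used as support here. The members and lists were chosen with earlier results of these data known. All members could be named, with array values for those called against SiC, the actins, Srf and, chosen after its values were seen, Myl9; of each other list, up to 3 called genes per direction by size. Promoter windows came from a RefSeq table on GRCm38.p6. Some of the other listed genes are not reported here.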

Additional observations from a re-analysis of the deposited data

Results flagged for a closer look

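In 5 of the 72 groups of 4 arrays examined (36 members in NT and Si1AK), 1 array stood far from the other arrays of its group, where chance flags about 1 in 20 groups. Actg2 was at -1.91 on NT replicate 4, beside -4.18 to -3.93 on the other NT arrays, and Fhl1 was at -3.30 on NT replicate 2, beside -2.94 to -2.88. Si1AK replicate 4 stood apart in Cnn2 (5.01, beside 5.16 to 5.18), Tagln2 (7.91, beside 7.65 to 7.67) and Tpm3 (7.94, beside 7.78 to 7.80).

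The siRNAs differed from each other, in the test of that difference by limma, in Acta2 (0.64, Si2AK minus Si1AK), Cnn1 (0.61), Csrp1 (0.56), Pdlim7 (0.46), Wdr1 (0.36), Zyx (0.30), Cnn3 (0.28) and Flnc (-1.26). Myl9 and Tpm1 were not called in that test (-0.53 and -0.29).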

How the results depend on the processing

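No member's called difference turned its direction under any alternative run. The number of members called higher with Si1AK against SiC (7) was 4 without the filter on dim probes, 2 with only the groups compared, 0 on slide 1 and 0 on slide 2, and 4 to 6 with 1 array left out. With Si2AK against SiC (12) it was 1 with only the groups compared, 3 on slide 1 and 1 on slide 2, and 11 to 14 with 1 array left out. For Si2AK minus Si1AK (7 higher, 1 lower) the higher count was 4 with normexp, quantile normalization, the 75th percentile over probes or the replicate block, 3 without the filter, 2 in the authors' table and 0 on either slide, and 3 to 8 with 1 array left out. The lower count was 2 with quantile normalization or the authors' table, 0 on either slide, and 1 to 2 with 1 array left out. Against NT, the Si1AK count (8) was 5 with the percentile over probes, 4 without the filter, 0 on either slide and 4 to 9 with 1 array left out. The Si2AK count (13) was 7 without the filter, 3 on slide 1, 2 on slide 2 and 7 to 13 with 1 array left out. Within a slide and with only the groups compared, fewer arrays entered the fit, and within a slide SiC or Si2AK had 1 array. Against SiC, fewer genes were called higher over all genes in these settings too. With only the groups compared they were 177 with Si1AK and 70 with Si2AK, beside 679 and 1816 in the main fit. For the other settings the cause was not tested. The replicate block gave 6 and 13 members against SiC. With slide as a block, every member call against SiC was kept. Cap1 (0.43) and Cnn1 (0.54) were then also called with Si1AK, and Flna, Myh9 and Actn1 with Si2AK. Over all genes, 899 and 2230 were called higher against SiC in that fit. Over 19 pairs of arrays with the same number, deviations correlated from -0.69 to 0.74, with 12 pairs over 0.1. The lowest value was that of SiC replicate 2 with Si2AK replicate 2, an array of raised signal. These values cannot tell whether arrays of the same number share a culture or batch, and the labels do not say. The median of all genes for Si1AK minus SiC was -0.060, but 0.061 with quantile normalization and 0.047 in the authors' table.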
